A study of Bostrychia moritziana with 3 samples.

Results

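Of 36534 assembled transcripts of the red alga Bostrychia moritziana, 98 (0.268%) were high in the female gametophyte library, close to 0 in the male gametophyte library and unlisted for the tetrasporophyte. They were chosen by their measured levels: at least 10 RPKM (reads scaled to each kilobase of a transcript and to 1000000 mapped reads) in the female, and at most 0.3 RPKM, or no entry, in the listings of the male gametophyte and the tetrasporophyte. The 98 made up 1.12% of the 8768 transcripts that reached 10 RPKM in the female. Because the values of all 3 libraries went into this choice, the levels below are a description and carry no test.

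The study sequenced RNA of 3 free-living stages of one cultured strain, numbered 2746 in the labels, with 1 library per stage and no genetic change or treatment. Male gametophytes were taken while spermatangial clusters were developing, female gametophytes while carpogonial branches were developing, and tetrasporophytes, grown from carpospores, once their sporangia had matured. Per the labels' protocols, thalli grew as unialgal cultures at 20 °C with 16 h of light and 8 h of dark. With 1 library per stage, the spread between cultures is unknown and every difference is one between single libraries. Whole thalli were sampled as far as the labels say, so a transcript made by few cells and one made weakly by many cells cannot be told apart.

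As background, the female gametophyte of a florideophyte red alga bears the egg-containing carpogonium at the tip of a short, specialised carpogonial branch. A hair-like outgrowth of the carpogonium, the trichogyne, catches the non-motile spermatia released by the male. After fertilization the carposporophyte grows on the female and releases carpospores, which grow into the tetrasporophyte, the stage in whose sporangia meiosis takes place. Genes at work in the carpogonial branch, in the surface that receives spermatia or in sex determination would therefore be sought among transcripts of the female. The files give each transcript an assembly number and no gene name, sequence or function, so no role can be given to any member, and the female label could not be checked against marker genes. For the same reason the organism from which a member came was not analysed here.

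The members were transcripts of moderate abundance. In the female they ran from 10 to 115.76 RPKM with a median of 16.7 RPKM, against a median of 24.2 RPKM for the other 8670 transcripts at 10 RPKM or more. The most abundant member held rank 588 in the female library and the median member rank 6227. Together the members held 0.506% of the summed female RPKM, and the 10 most abundant of them held 27.2% of that part.

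The most abundant member, ISGT_6323, reached 115.76 RPKM in the female, was at 0.10 RPKM for the male and had no entry for the tetrasporophyte. Its ratio of female to male was 1158. The next, ISGT_15365, had a female level of 109.01 RPKM and a male level of 0.17 RPKM, a ratio of 641, and it too had no tetrasporophyte entry. These were the only members at or above 100 RPKM in the female, where 720 transcripts in all reached that level. The member next in rank had a female level of 62.13 RPKM and a male level of 0.22 RPKM, and the one after it 56.12 RPKM and 0.10 RPKM. Below these 4, levels fell off without a further break, as the plot of levels by rank shows.

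The 36 members between 20 and 50 RPKM had a female median of 31.6 RPKM. In the male they ran from 0.02 to 0.29 RPKM with a median of 0.15 RPKM. The 58 members between 10 and 20 RPKM had a female median of 13.6 RPKM and a male median of 0.08 RPKM, and in the male they ran from 0 to 0.28 RPKM. Members were a small part of every abundance class of the female. Of all transcripts between 10 and 20 RPKM 1.68% were members, of those up to 50 RPKM 1.03%, of those up to 100 RPKM 0.179%, and of those above 0.278%.

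**Figure D1:**
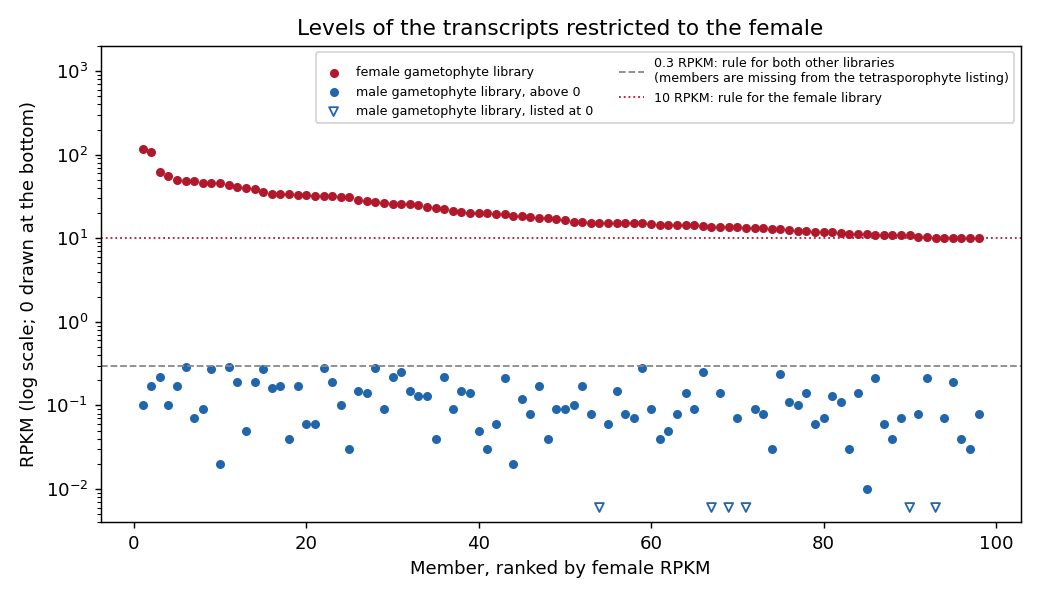
RPKM on a log scale for each of the 98 members, ranked by female level. Red points are the female library, blue points the male library, and open triangles at the bottom the 6 members listed at 0 in the male. The dashed line at 0.3 RPKM and the dotted line at 10 RPKM are the limits of the rule, and the empty band between them is made by the rule.

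Most members were faintly present in the male library. Of the 98, 92 (93.9%) had a male value above 0 and 6 (6.12%) were listed at 0. Of all 2616 listed transcripts at 0.3 RPKM or less in the male, 886 (33.9%) were at 0, but the median female level of the 2616 was only 0.50 RPKM. Of the 92, 17 stood at no more than 0.05 RPKM, 32 above that and up to 0.1 RPKM, 27 up to 0.2 RPKM and 16 up to 0.29 RPKM, the highest male value of a member. The ratio of female to male over these 92 had a median of 186, with quartiles of 124 and 298 and a range from 48.7 to 2262. Values carry 2 decimals, so ratios over the lowest male values are coarse, and the highest rests on a male value of 0.02 RPKM. Over all 98, the male level was a median of 0.524% of the female level. The 6 members listed at 0 in the male lay between 10.17 and 15.25 RPKM in the female. Every member above that level had a male value above 0.

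The mirrored rule, with male and female exchanged, gave 176 transcripts restricted to the male. Of these, 63 (35.8%) were listed at 0 in the female, and their female level was a median of 0.0540% of the male level. Their own level was close to that of the members, with a median of 16.5 RPKM in the male. The steps of the low values give 1.12 times as many reads for the female as for the male library, if the most common step is that of equal reads. Transcript length also sets how often a value is 0, and it is not given in the sources used here. Of the 176, 85 (48.3%) carry assembly numbers of 19000 or more. All 85 lay at numbers up to 23999. In every block of 500 numbers from 22000 to 30999 the female median over all listed transcripts was 0. In the blocks from 19000 to 21999, which also hold part of the 85, it lay between 0.15 and 0.51 RPKM. The part of depth, length and place in the numbering in these shares was not tested, and transcripts are not replicates, so no test was made.

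The level of the members in the tetrasporophyte was never seen directly. All 98 are missing from the tetrasporophyte listing, and the entries of that listing show a pattern that would leave them out. All 27832 transcripts above 0.3 RPKM in the male have a tetrasporophyte entry. Among transcripts below 0.3 RPKM in the male and listed for the tetrasporophyte, 603 in number, the lowest tetrasporophyte value is 0.30 RPKM. Transcripts low in both thus appear to have been left out, and a missing entry was read as at most 0.3 RPKM. On that reading the female level was at least 33.3 times the tetrasporophyte level for the lowest member and at least 386 times for ISGT_6323.

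On the log2(RPKM + 1) scale, which understates differences of low values, the members' median log2 ratio of female to male was 4.01, with a range from 3.21 to 6.73. The median over all 20061 transcripts compared was -0.20. All 98 were at least 4-fold higher in the female than in the male, against a background of 647 of the 20061 (3.23%). Against the tetrasporophyte, where each missing entry was put at 0.3 RPKM, the members' median log2 ratio was 3.77 and all 98 were again at least 4-fold higher, against 774 of 18774 (4.12%). The rule makes any member pass 4-fold in both comparisons, so these counts say nothing further about the members. Both comparisons use the same female library. The members were 15.1% of the 647 transcripts higher than in the male and 12.7% of the 774 higher than in the tetrasporophyte.

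Few transcripts lay between the members and the bulk of the female's abundant transcripts. Of the 8768 transcripts at 10 RPKM or more in the female, 8597 (98.0%) exceeded 5 RPKM in the male or the tetrasporophyte. Only 16 had their higher value in those libraries above 0.3 and up to 1 RPKM, 17 above 1 and up to 2 RPKM, and 40 above 2 and up to 5 RPKM. The lowest class, of at most 0.3 RPKM, spans everything down to 0 and holds the 98. Raising the limit in the other libraries to 1 RPKM added 16 transcripts, for a total of 114.

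**Figure D2:**
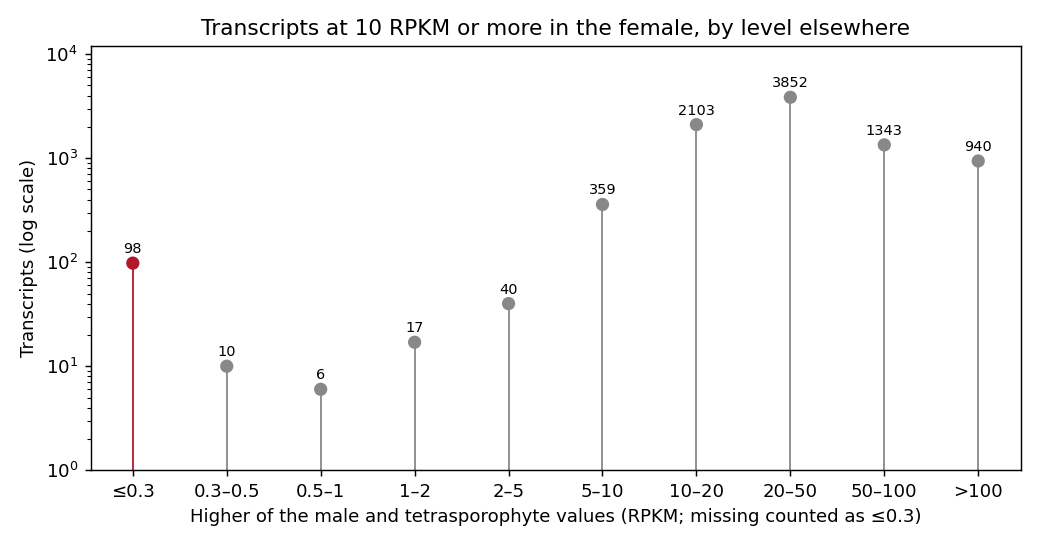
Number of transcripts, on a log scale, among the 8768 at 10 RPKM or more in the female, by the higher of their male and tetrasporophyte values in RPKM. The red point is the 98 members, and the fewest transcripts, 6, lie above 0.5 and up to 1 RPKM.

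Near the limits of the rule there was no break in the female level. Between 10 and 11 RPKM there were 12 members, and 13 transcripts with the same low levels elsewhere lay between 9 and 10 RPKM, the highest of them at 9.97 RPKM. Between 1 and 10 RPKM there were 286 such transcripts. On the male side, 7 members exceeded 0.25 RPKM. Among transcripts at most 0.3 RPKM in the tetrasporophyte, the first outside stood at 0.31 RPKM in the male, with a female level of 76.02 RPKM and a tetrasporophyte level of 0. On the tetrasporophyte side, the first outside stood at 0.44 RPKM there, with a female level of 21.94 RPKM and a male level of 0.11 RPKM.

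The fixed limit of 0.3 RPKM bore on the most abundant transcripts of the female. With the limit set instead at 3% of each transcript's own female level, which is the same at 10 RPKM, 113 transcripts were found: the 98 members and 15 more. The female median of these 15 was 57.2 RPKM, and 5 of them reached 100 RPKM, against 2 of the members. The highest had 812.17 RPKM in the female, and its male and tetrasporophyte levels were 0.88 and 0.18 RPKM. Another had 585.44 RPKM in the female, and its male and tetrasporophyte levels were 2.97 and 0.05 RPKM. One more, at 591.85 RPKM in the female, was plainly present elsewhere, with male and tetrasporophyte levels of 13.96 and 14.69 RPKM. With these 15 the share of the summed female RPKM rose from 0.506% to 1.10%.

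The same 15 transcripts had measured tetrasporophyte values. All 15 are listed for the tetrasporophyte, at a median of 0.09 RPKM, and 11 of them stood at 0.3 RPKM or less. These values belong to other transcripts and do not give the level of the members.

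Low levels in the male and in the tetrasporophyte occurred apart as well as together. Of the 174 transcripts at 10 RPKM or more in the female and at most 0.3 RPKM in the male, 98 are the members. Of the remaining 76, 39 exceeded 10 RPKM in the tetrasporophyte, 36 lay above 1 and up to 10 RPKM, and 1 lay below that. In the male, where the rule held both sets to at most 0.3 RPKM, 9 of the 76 were listed at 0. Of the 237 transcripts at 10 RPKM or more in the female and at most 0.3 RPKM or missing in the tetrasporophyte, 92 exceeded 10 RPKM in the male, 35 lay above 1 and up to 10 RPKM, and 12 lay above 0.3 and up to 1 RPKM.

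Over 50% of the members lay together in transcript number, which the rule did not use. Of the 98, 57 (58.2%) carried a transcript number from 17000 to 17999, a range that holds 162 (1.85%) of the transcripts at 10 RPKM or more in the female. In this range 35.2% of the transcripts at that level were members, against 0.476% (41 of 8606) among all other numbers. The range was picked after the values were seen, as the block of 1000 numbers, starting at a multiple of 1000, with the most members. The way the assembly numbered its transcripts is not given in the sources used here. What a nearby number means for the sequence or the gene is therefore not known.

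Within the range, numbers from 17000 to 17499 held 17 members of 45 transcripts at 10 RPKM or more, and numbers from 17500 to 17999 held 40 of 117. The densest run of 100 numbers, from 17500 to 17599, held 22 members, which was 55.0% of the 40 transcripts at that level there. On either side the share was lower, at 12.5% (5 of 40) from 16000 to 16999 and 19.2% (5 of 26) from 18000 to 18999. From 13000 to 15999 it was 9.92% (12 of 121), and from 4500 to 12999 it was 0.737% (19 of 2578). No member lay below number 4982 or above 18726. The numbers up to 4499 hold 3572 transcripts at 10 RPKM or more in the female and those from 38500 onward hold 2267.

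**Figure D3:**
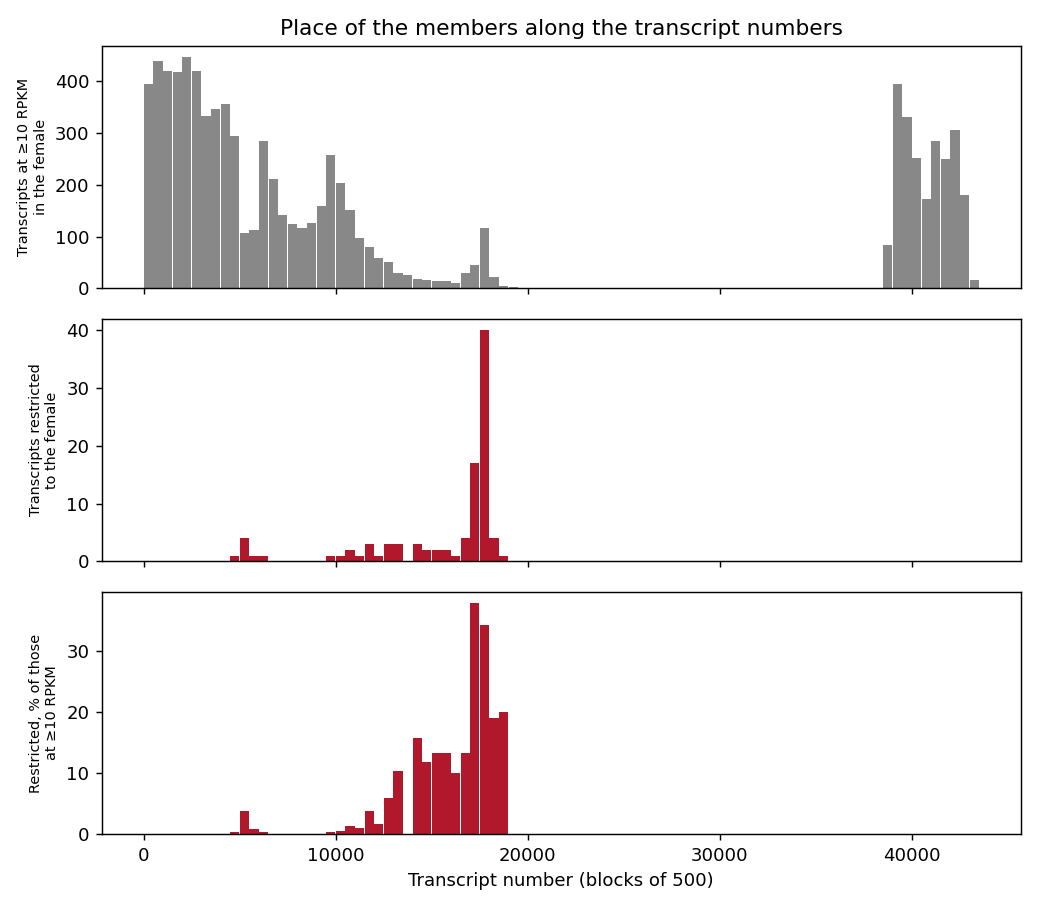
Transcripts in blocks of 500 transcript numbers: those at 10 RPKM or more in the female (top), those restricted to the female (middle) and the second as a percentage of the first (bottom). Members fill 22 of the 87 blocks, and the blocks from 17000 and 17500 hold 17 and 40 of them, while no other block holds more than 4.

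The other restricted sets were most crowded at other numbers. Of the 176 restricted to the male, 37 (21.0%) lay in their fullest such block, 23000 to 23999. Between 17000 and 17999 lay 7 of the 176 (3.98%). Of the transcripts at 10 RPKM or more in the male, 7 of 102 in that range were restricted to it. Over all numbers 176 of 9748 (1.81%) were. Of the 175 restricted to the tetrasporophyte, 30 (17.1%) lay between 3000 and 3999. Between 17000 and 17999 lay 10 of the 175 (5.71%). Of the transcripts at 10 RPKM or more in the tetrasporophyte, 10 of 79 in that range were restricted to it, against 175 of 9806 (1.78%) over all numbers. In both sets the restricted part was thus larger in the range than over all numbers. Numbers from 19000 to 38499 held 85 of the male set and 45 of the tetrasporophyte set. In the female only 2 transcripts there reached 10 RPKM at all, so there was next to nothing that could be a member. Because the range was picked for its female members, smaller shares of other sets in it are no comparison of how crowded the sets are, and the differences were not tested.

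Other transcripts of the range also differed between libraries. The 57 members pass 4-fold by the rule, so they were left out of the counts against the female. The counts are still not independent of the range, which was picked from the same values. With the female limit lowered to 5 RPKM, 87 transcripts of the range were restricted, the 57 members included. Those of the 87 under 10 RPKM stay in the counts and pass 4-fold against both other libraries. Without members, 94 of 550 transcripts compared between the sexes (17.1%) were at least 4-fold higher in the female, against 455 of 19413 (2.34%) among other numbers. The opposite direction, 4-fold or more towards the male, held 42 of the same 550 (7.64%) and 1810 of the 19413 (9.32%). The lower and upper parts of the range were unlike: without members, listed transcripts from 17000 to 17499 had female and male medians of 0.54 and 0.66 RPKM, and those from 17500 to 17999 had 2.53 and 1.06 RPKM. Against the tetrasporophyte, 125 of 497 non-members (25.2%) were at least 4-fold higher in the female, and 551 of 18179 (3.03%) elsewhere. Between male and tetrasporophyte, 25% of 432 transcripts were 4-fold or more towards the male and 8.33% towards the tetrasporophyte, with 7.15% and 4.79% elsewhere. Of the 162 transcripts at 10 RPKM or more in the female, 66 exceeded 0.3 RPKM in both other libraries.

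Members inside and outside the range had overlapping levels in the female. The 57 inside had a median of 16.3 RPKM and reached 62.13 RPKM, and the 41 outside had one of 17.1 RPKM and reached 115.76 RPKM. The male medians were 0.08 RPKM inside and 0.13 RPKM outside. Of the 6 members at 0 in the male, 5 lay inside.

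**Figure D4:**
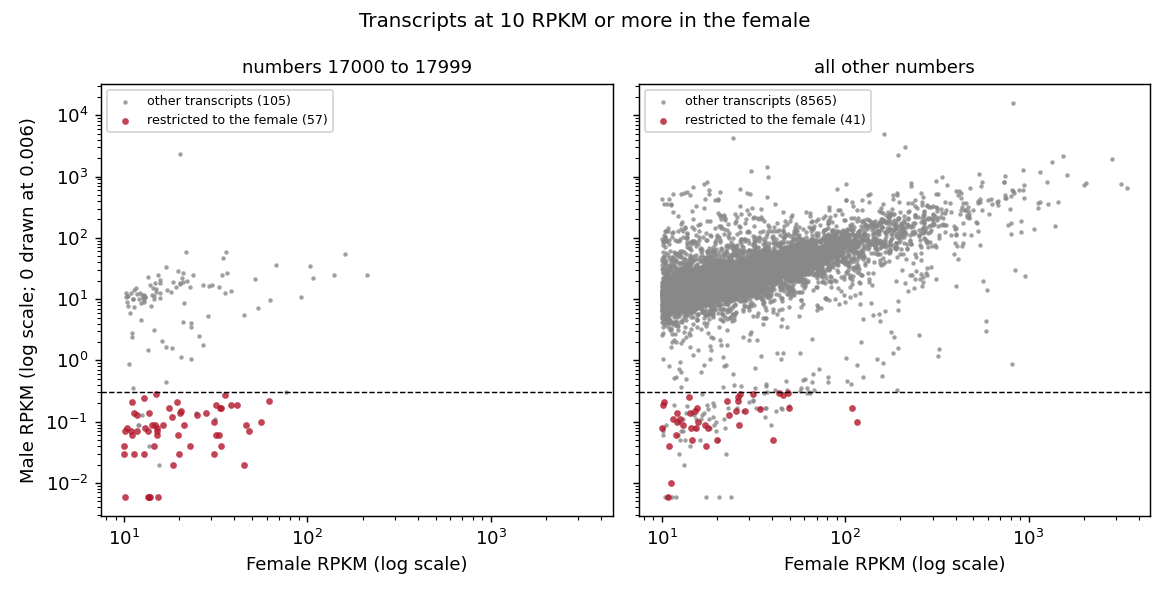
Female against male RPKM, both on log scales, for the 8768 transcripts at 10 RPKM or more in the female, with numbers 17000 to 17999 on the left and all others on the right. Red points are members (57 and 41), gray points are other transcripts, and the dashed line is 0.3 RPKM in the male. Gray points under the line are transcripts above 0.3 RPKM in the tetrasporophyte.

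At the scale of single numbers the members were not set in long runs. Of the 98, 10 had another member at the next number, as 5 separate pairs, all within the range. In one pair the female levels were 32.79 and 31.64 RPKM, and in the pair with the highest ratio between them they were 33.99 and 18.51 RPKM. Inside the range 10 of 57 members (17.5%) had a member at the next number, and so did 17 of the 105 other transcripts at 10 RPKM or more there (16.2%). Within 5 numbers the shares were 64.9% and 45.7%.

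Most transcripts next to a member were less than 4-fold higher in the female. Of the 155 non-members that adjoin a member and are listed for the female, the female median was 1.35 RPKM and the male median 1.46 RPKM. Among the 106 of them compared between the sexes, 14 (13.2%) were at least 4-fold higher in the female, against 3.23% of all transcripts compared. Most members lie in the range described above, where 17.1% of the non-members passed 4-fold.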

How the data were processed

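The authors' deposited files give each transcript 1 value per library in RPKM, with 2 decimals, per the file headers. Which assembler, aligner and counting tool made them, how long the transcripts are and how many reads each library held is not given in the sources used here. The 3 listings were joined on the transcript number. The members and settings were chosen with earlier results of these data known. Levels were used without further scaling, and fold comparisons used log2(RPKM + 1) for transcripts reaching 1 RPKM in one of the libraries, counting 4-fold. A missing value was set to 0.3 RPKM. Only the 2 most abundant members are named by number. With 1 library per stage no p-value was computed. Without read totals no value has a counting interval. Relative depth was fitted from the steps of ratios between 0.3 and 3 RPKM. At the best step 71 male to female ratios lay within the window, against 31.7 beside it. The code for the selection and for the female to male fold counting was run on transcripts given planted values, which checks the code and not the members. Python 3.11.15, numpy 2.4.6, pandas 2.3.3 and matplotlib 3.10.9 were used.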

Additional observations from a re-analysis of the deposited data

How the results depend on the processing

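The 98 transcripts became 160, 40, 4 and 2 with at least 5, 20, 50 and 100 RPKM in the female. They became 55 with at most 0.1 RPKM in the male, with missing tetrasporophyte entries still let in, and lay between 82 and 114 with limits of 0.2 to 1 RPKM. Median-of-ratios scaling gave 113, and scaling each library to a sum of 1000000, which also raises every value against the fixed limits, gave 136. Requiring an entry in all 3 listings left 0. The listing pattern described above would leave such transcripts out, so this setting tells nothing about their level in the tetrasporophyte. Leaving out numbers 17000 to 17999, a choice made after seeing the data, left 41. The members' share of the summed female RPKM was 0.548% over transcripts at 10 RPKM or more, and 1.10% with the limit at 3% of the female level, also chosen after seeing the data.

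The median log2 ratio of female to male, 4.01, was 6.54 with a pseudocount of 0.1 RPKM, 4.89 over members at 20 RPKM or more, 4.17 with median-of-ratios scaling and 4.97 with the common sum. That to the tetrasporophyte, 3.77, was 5.39, 4.68, 3.93 and 4.54 in the same order, and 4.15 with missing values set to 0. Median-of-ratios scaling moves all log2 ratios of female to male by 0.28 and of female to tetrasporophyte by 0.21, before the pseudocount. A ratio over members listed for the tetrasporophyte could not be computed, as there are 0. The counts of all transcripts 4-fold higher in the female, 647 and 774, became 1033 and 1307 with the pseudocount of 0.1 RPKM. Median-of-ratios scaling gave 768 and 879 and the common sum 876 and 1101, both settings added after seeing the data. Dropping the filter could not change the counts, because any transcript passing 4-fold with a pseudocount of 1 RPKM exceeds the filter of 1 RPKM. Members with another member nearby numbered 17, 39 and 48 within 2, 5 and 10 numbers. The share of members between 17000 and 17999 lay between 40.1% and 67.3% over 9 of 10 alternatives chosen after seeing the data. It was 0% (0 of 2) at 100 RPKM or more in the female, and 2 of the 15 transcripts added by the 3% limit lay there. No paired analysis was possible because there is 1 library per stage, and no replicate could be left out.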
